A study of Homo sapiens with 35 samples.

Results

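A set of 38 interferon-stimulated genes was followed through U-87 MG cells, an established human glioblastoma line, in RNA-seq and in ChIP-seq of p52, ETS1 and RNA polymerase II (RNA Pol II). The genes were chosen by symbol as widely used markers of the interferon response, and the choice rule uses no measured value. Earlier results of these data were known when the list was drawn up. All 38 had a row among the 62696 of the count table, and 36 were among the 16879 genes with enough counts to be tested. *RSAD2* (2 to 9 counts per library) and *IFI27* (1 to 6 counts) were not tested.

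The study asked how the non-canonical NF-κB subunit p52, which is made from *NFKB2*, works with the transcription factor ETS1 in glioma cells. TWEAK, a cytokine of the TNF family that switches on non-canonical NF-κB signalling, was given at 10 ng/ml for 48 h. RNA-seq covered 4 groups of 3 libraries: control cells without TWEAK, control cells with TWEAK, *ETS1* knockdown (KD) cells with TWEAK and *NFKB2* KD cells with TWEAK. ChIP-seq covered 10 groups of 2 libraries: p52 in control cells without and with TWEAK and in TWEAK-treated *ETS1* KD cells made with guide 1 or guide 2, ETS1 in control cells without and with TWEAK, and RNA Pol II in the same 4 groups as RNA-seq. All groups were of 1 cell line, starved before treatment, and the KDs were made by lentiviral delivery of Cas9 with a guide RNA. The labels do not give the guide behind the KD libraries of RNA-seq and RNA Pol II, nor whether a KD was a clone or a pool, and no KD without TWEAK was analysed here. The replicates are described as biological, with nothing on separate cultures in the labels, so p-values measure the spread between these libraries.

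Interferons bind receptors at the cell surface and activate the JAK kinases, which phosphorylate transcription factors such as STAT2. STAT2 and IRF9 act in the complex ISGF3, which binds the interferon-stimulated response element (ISRE), whereas the gamma-activated sequence (GAS) serves the response to interferon gamma, and IRF1 and IRF7 bind elements related to the ISRE. The genes they switch on encode proteins that sense viral RNA, block its translation, degrade it or tag other proteins with ISG15, and many of them are also transcribed at a low level in tumour cells that meet no virus.

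The promoters of these genes carried the ISRE far more often than other promoters. In the RefSeq promoters of assembly GRCh38.p14, each reaching from 250 bases before to 50 bases after a transcript start, 30 of the 38 genes were found. The other 8 were *IFIT2*, *OAS2*, *OASL*, *MX2*, *GBP2*, *USP18*, *IRF7* and *TRIM22*. Either strand was searched for the ISRE letters, TTTC, any 2 bases and TTTC, the GAS letters TTCNNNGAA, the κB consensus and the ETS cores CCGGAAG and CGGAAGT. The ISRE letters were in 21 of the 30 promoters (70.0%), against 4.06% of the promoters of 11404 tested genes. The GAS letters were in 9 (30%, against 8.68%). The κB consensus was in 5 (16.7%, against 8.97%), those of *BST2*, *IFIH1*, *IRF1*, *OAS3* and *XAF1*. The ETS cores went the other way, at 6.67% of the interferon-stimulated genes for each, against 21.4% for CCGGAAG and 15.1% for CGGAAGT. In wider windows, from 1000 bases before to 100 after the start, the ISRE shares were 73.3% and 16.3%, whereas those of κB were 23.3% and 23.7%. A match describes the letters only, and it shows neither a bound site nor a cause.

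**Figure D1:**
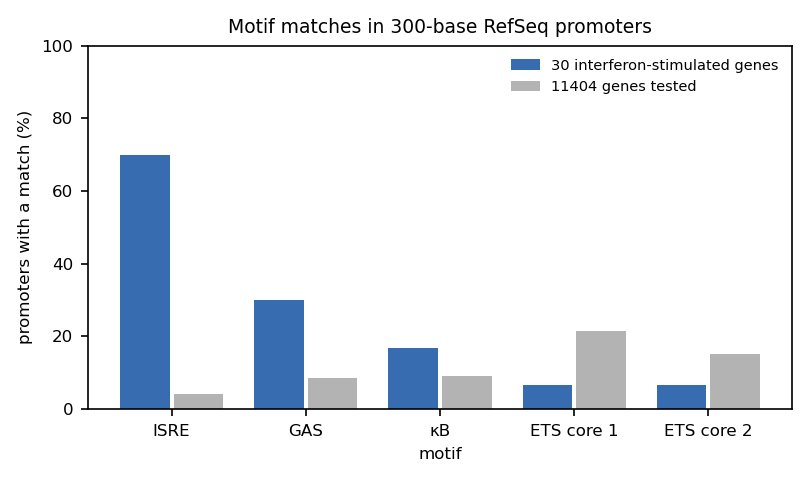
Share of 300-base RefSeq promoters (vertical axis, %) that hold each motif (horizontal axis) among 30 interferon-stimulated genes (blue) and 11404 tested genes (grey). ETS core 1 is CCGGAAG and ETS core 2 is CGGAAGT. The ISRE stood at 70.0% against 4.06%, and each ETS core at 6.67% against 21.4% and 15.1%.

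The ISRE matches are shown first, because the ISRE was the most frequent of these motifs, in 21 of the 30 promoters searched. Each is printed 5′ to 3′ on the strand of its gene from the RefSeq promoters, with the motif in capitals. A match on the other strand reads GAAA, any 2 bases and GAAA. *IFIT1*, *IFIT3*, *ISG15* and *MX1* had more than 1 ISRE match, and 1 per gene is printed. That of *IFIT1* is at chr10:89392510-89392539 (plus strand, 103 bases before the start), that of *IFIT3* at chr10:89327865-89327894 (plus strand, 122 bases before) and that of *ISG15* at chr1:1013380-1013409 (plus strand, 107 bases before), all upstream of the MANE transcript. That of *MX1* is at chr21:41420559-41420588 (plus strand, 11 bases after the start of an alternative transcript and upstream of the MANE transcript). *PARP9* (minus strand) and *DTX3L* (plus strand) are divergent neighbours and share 1 match at chr3:122564322-122564351, which is therefore printed on both strands.
*IFIT1* ISRE: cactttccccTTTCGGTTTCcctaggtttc
*IFIT3* ISRE: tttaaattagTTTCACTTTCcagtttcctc
*ISG15* ISRE: tcgggaaaggGAAACCGAAActgaagccaa
*MX1* ISRE: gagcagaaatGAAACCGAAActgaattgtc
*PARP9* ISRE: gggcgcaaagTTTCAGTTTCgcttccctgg
*DTX3L* ISRE: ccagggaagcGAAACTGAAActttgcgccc

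The next set is shown because these matches lie under or beside the p52 peaks described further on. The κB and GAS matches of *IRF1* are at chr5:132490804-132490833 and chr5:132490879-132490907 (minus strand, 50 and 124 bases before the start), upstream of the MANE transcript. The ISRE and κB matches of *OAS3* are at chr12:112938321-112938350 and chr12:112938334-112938363 (plus strand, 143 and 130 bases before the start), upstream of the MANE transcript and within an exon of another *OAS3* transcript. These 4 are from the RefSeq promoters. The κB matches of *IFIT3* (chr10:89334079-89334108), *DDX60* (chr4:168318591-168318620) and *IFIH1* (chr2:162318970-162318999) were read from hg38 under the peaks and are printed on the plus strand. The first 2 of these lie in an intron of the MANE transcript, and that of *IFIH1* lies upstream of its gene and within the neighbouring gene *GCA*. Further matches of *IRF1*, *OAS3*, *IFIT3* and *IFIH1* are not printed.
*IRF1* κB: ggccagggctGGGGAATCCCgctaagtgtt
*IRF1* GAS: acagcctgatTTCCCCGAAatgacggcac
*OAS3* ISRE: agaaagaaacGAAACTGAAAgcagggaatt
*OAS3* κB: actgaaagcaGGGAATTTCCcaagtttggg
*IFIT3* κB: gacaagagtgGGGAAATCCCcactcttacc
*DDX60* κB: ctcttcccaaGGGACATCCCcggctcctca
*IFIH1* κB: catgtgatttGGGACTTTCCaaaggggaag

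The RNA-seq libraries held 28384201 to 40192606 counts. *ETS1* fell in its own KD (log2 fold change −1.23, adjusted p = 0.00112, edgeR), from 71.9, 73.1 and 87.6 to 28.2, 33.0 and 37.8 CPM, which is the TMM-normalised count of a gene scaled to a common library size. *NFKB2* fell in its KD from 235, 289 and 346 to 75.6, 92.6 and 105 CPM (−1.67, adjusted p = 0.00339, edgeR). The mesenchymal marker *VIM* ran from 9088 to 17685 CPM and the leukocyte marker *PTPRC* from 0 to 3 counts. Of 13 NF-κB response genes, 9 rose with TWEAK. Untreated replicate 3 and *NFKB2* KD replicate 2 had the largest trends of expression with GC content.

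The interferon-stimulated genes were transcribed at a low to moderate level in untreated cells and their summed level differed little between groups. The 38 genes together made up 726, 750.4 and 686 CPM in untreated cells, 752, 753 and 796 with TWEAK, 671, 709 and 692 in *ETS1* KD cells and 737, 631 and 751 in *NFKB2* KD cells. The *ETS1* KD libraries thus lay below every TWEAK-treated control library. Fewer cells in a given state and less RNA per cell cannot be told apart in bulk samples.

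Per kilobase of exon, the median level of the 36 tested genes in TWEAK-treated control cells was 2.55 CPM per kb, against 2.92 over all tested genes, and 15 of the 36 lay above that all-gene median. Exon length was taken over all annotated transcripts of a gene together, so the order of genes below depends in part on the annotation. *IFI44* led at 28.8 ± 2.72 CPM per kb (SD, n = 3), followed by *IFI6* at 16.4 ± 0.73 and *IFI35* at 14.8 ± 1.71, which lay within their spread of each other. *ISG15*, the ubiquitin-like modifier, stood at 13.1 ± 1.58, within the spread of *IFI35*. *CMPK2*, a mitochondrial nucleotide kinase, was lowest at 0.109 ± 0.0261, next to *ISG20*, an exonuclease, at 0.123 ± 0.00182 and *IRF9* at 0.125 ± 0.0555. The set thus spanned a wide range of levels without interferon having been added.

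**Figure D2:**
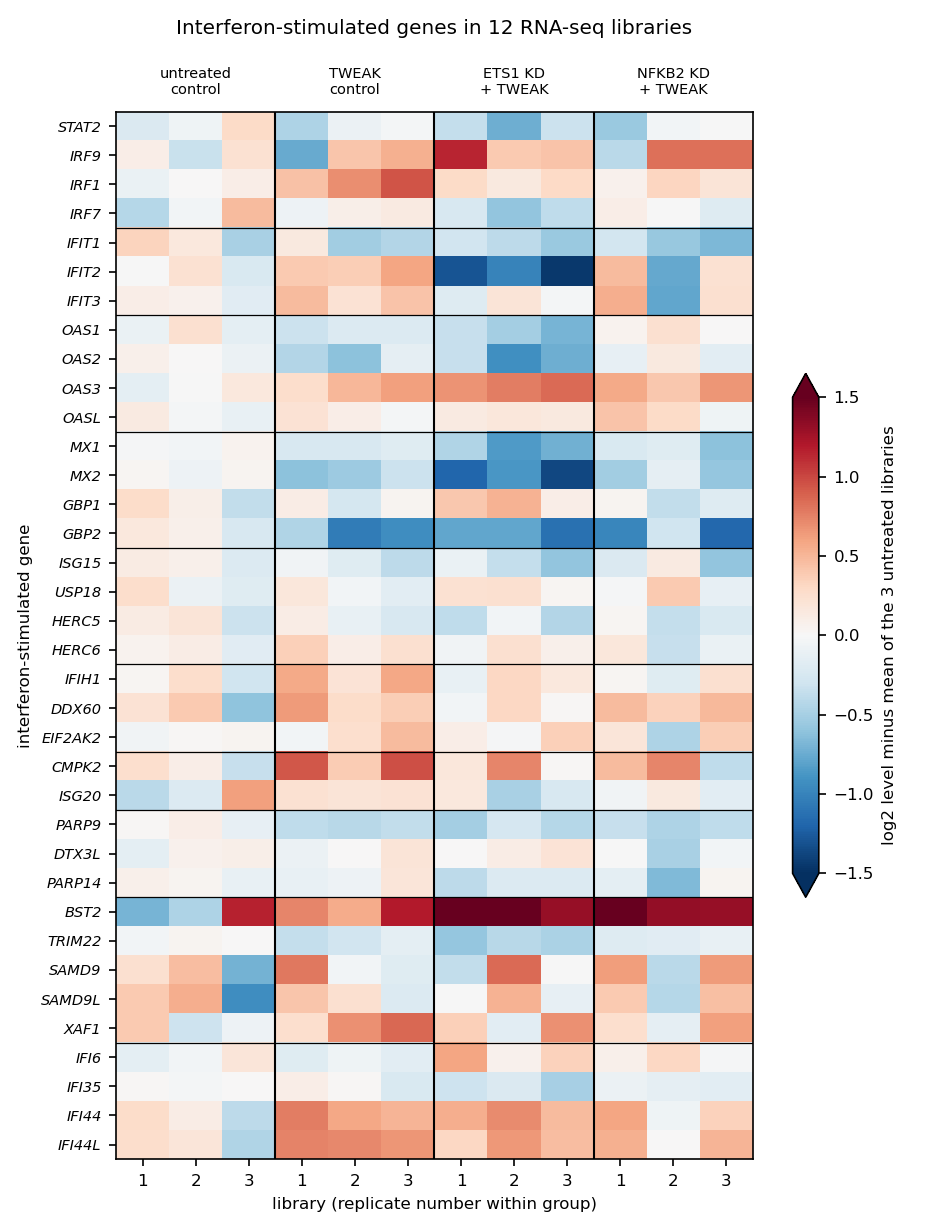
Level of each of the 36 tested genes (rows, grouped by role) in the 12 RNA-seq libraries (columns), as log2 CPM minus the mean of the 3 untreated libraries (colour, red above and blue below). *IRF1* is above its untreated level in all 3 TWEAK-treated control libraries, as are *IFI44*, *IFI44L* and *OAS3*, while *GBP2* and *PARP9* are below theirs. *IFIT2* is lowest in the 3 *ETS1* KD libraries, and many other rows change little or differently within a group.

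TWEAK against no treatment in control cells addressed whether the cytokine moves the interferon programme. It raised *IRF1* and, by the test used, no other of these genes. *IRF1* (ENSG00000125347, chr5:132440440-132508719 in hg38, minus strand) encodes a transcription factor that both interferon and NF-κB signalling are known to induce. It measured 26.9, 28.9 and 31.0 CPM without TWEAK and 39.3, 46.7 and 55.4 with it. The groups did not overlap, and the means were 28.9 ± 2.02 and 47.1 ± 8.05 (SD, n = 3). The log2 fold change was 0.70 ± 0.13 (SE), or 1.63-fold, with an adjusted p of 0.0133 by edgeR's quasi-likelihood test with Benjamini-Hochberg adjustment. By size it was 186th among the 261 genes that rose. The adjusted p of *IRF1* ran from 0.000129 to 0.0882 over 22 alternatives and was above 0.05 in 5 of them: 0.0882 without untreated replicate 1, 0.0823 without untreated replicate 2, 0.0644 without TWEAK replicate 2, 0.0867 without TWEAK replicate 3 and 0.0501 when the other 2 groups were left out of the fit. Genes on the opposite strand overlap *IRF1* and 18 other members, and the strand setting of the counting is not given in the sources used here, so reads of such pairs cannot be told apart.

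In all, 1 of 36 tested members rose (2.78%, against 1.55% of all tested genes) and 0 fell (1.53% of all), although 5 rose and 4 fell at an unadjusted p under 0.05. By DESeq2 the calls were 3 higher and 2 lower. All-gene shares at an unadjusted p alone or by DESeq2 were not counted, here or in the comparisons below. Such counts are therefore not read as particular to these genes. The threshold used in the study, p at or under 0.05 unadjusted with a 1.5-fold change or more, gave 3 (3.30% of all genes) and 1 (3.79%). The median log2 fold change was 0.04, against 0.02 over all genes, and the range was −0.81 to 0.88. The replicates of the 2 groups did not overlap for 7 members that were higher (*IRF1*, *IFIT2*, *IFIT3*, *OAS3*, *CMPK2*, *IFI44* and *IFI44L*, 19.4% against 11.0% of all genes) and for 7 that were lower (*OAS1*, *OAS2*, *MX1*, *MX2*, *GBP2*, *PARP9* and *TRIM22*, 19.4% against 11.5%). The programme was therefore not displaced in 1 direction.

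By role, the median log2 fold changes of the 10 groups ran from −0.36 to 0.51, and outside *IRF1* no member of any group passed. The pair of tested nucleotide and RNA enzyme genes stood at a median of 0.51, the *IFIT* family at 0.38, the 3 genes of RNA sensing at 0.37 and the *IFI* genes at 0.28. *IFIH1* encodes the sensor MDA5, *DDX60* a helicase of the same pathway and *EIF2AK2* the kinase PKR. The restriction factors stood at 0.17, the transcription factors at 0.10, *PARP9*, *DTX3L* and *PARP14* at 0.00042, the ISG15 system at −0.06, the *OAS* family at −0.08 and the 4 large GTPase genes at −0.36. Among the last, *GBP2* stood at 8.27, 7.81 and 6.25 CPM without TWEAK and 5.38, 3.53 and 3.83 with it (−0.81 ± 0.24, adjusted p = 0.0986, edgeR). *IFI44L* measured 25.9, 24.5 and 15.7, then 36.2, 35.4 and 34.1 (0.68, adjusted p = 0.0803, edgeR). These groups did not overlap either, but neither gene passed.

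The genes most often used as readouts of interferon did not pass. *ISG15* measured 14.2, 13.8 and 11.3 CPM without TWEAK and 12.6, 11.5 and 9.91 with it (−0.21, adjusted p = 0.717, edgeR). *MX1*, which encodes a GTPase that traps viral nucleocapsids, measured 3.16, 3.10 and 3.31, then 2.69, 2.69 and 2.80 (−0.23, adjusted p = 0.637, edgeR). *IFIT1*, whose protein binds viral RNA that lacks cap methylation, measured 12.8, 11.3 and 7.25, then 11.3, 7.07 and 7.47 (−0.29, adjusted p = 0.654, edgeR). *MX1* was lower without overlap, whereas *ISG15* and *IFIT1* overlapped between the groups.

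The other transcription factors of the response did not pass. *STAT2* measured 78.9, 87.5 and 112 CPM without TWEAK and 66.5, 86.7 and 90.3 with it (−0.20, adjusted p = 0.732, edgeR). *IRF7*, which drives the late wave of type I interferon genes, measured 2.26, 2.98 and 4.28, then 2.91, 3.26 and 3.39 (adjusted p = 0.997, edgeR). *IRF9*, the DNA-binding subunit of ISGF3, measured 0.764, 0.553 and 0.844, then 0.395, 0.971 and 1.05, at only 11 to 56 counts per library over the 12 libraries (0.19, adjusted p = 0.905, edgeR). All 3 overlapped between the groups.

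**Figure D3:**
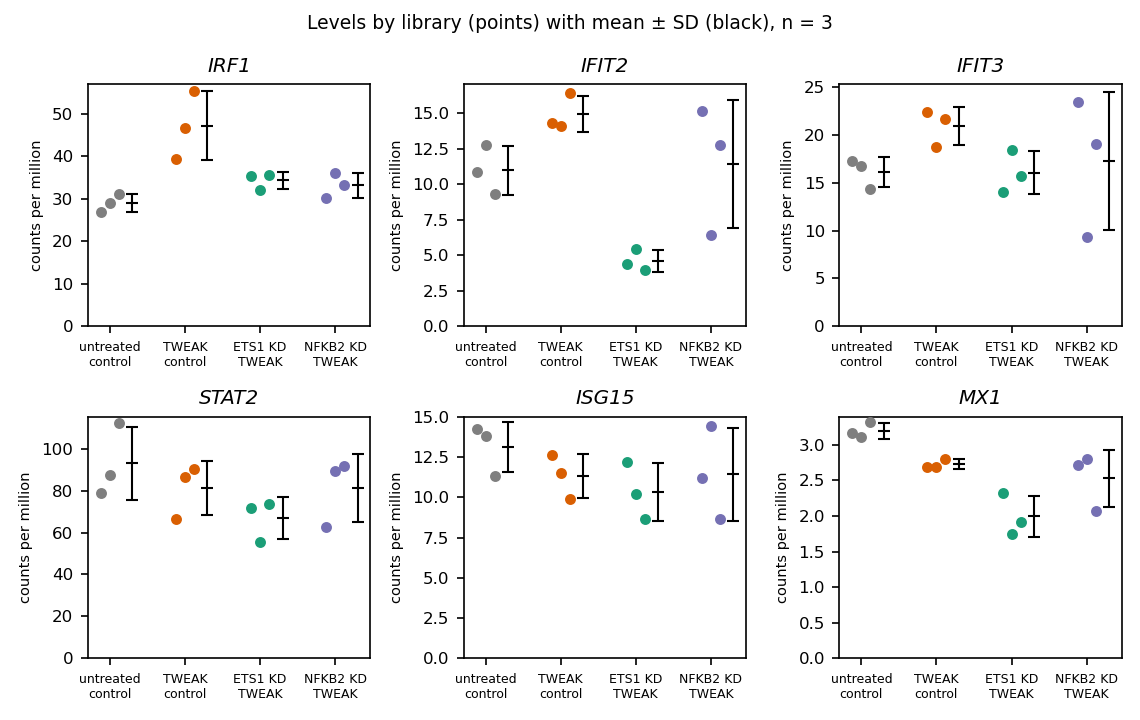
Level in CPM (vertical axes, from 0) of 6 genes in each RNA-seq library (points, coloured by group), with mean ± SD in black (n = 3). *IRF1* is higher in the 3 TWEAK-treated control libraries than in the other 9, *IFIT2* is lowest in the 3 *ETS1* KD libraries at 3.95 to 5.43, and *STAT2* and *ISG15* overlap between groups.

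*ETS1* KD against control, both with TWEAK, asked which genes depend on ETS1 in stimulated cells. *IFIT2* fell, and it fell further than any other member. *IFIT2* (ENSG00000119922, chr10:89283694-89309271 in hg38, plus strand) encodes a tetratricopeptide-repeat protein that binds viral RNA and restrains translation. It measured 14.3, 14.1 and 16.4 CPM in TWEAK-treated control cells and 4.40, 5.43 and 3.95 in *ETS1* KD cells. The groups did not overlap, and the KD values were also below the 10.9, 12.8 and 9.31 of untreated cells. The log2 fold change was −1.70 ± 0.26, which is 3.26-fold lower, with an adjusted p of 0.00519 by edgeR's quasi-likelihood test. By size it was 50th among the 191 genes that fell, and over 22 alternatives the adjusted p ran from 1.42e-14 to 0.0435. *IFIT2*, *IFIT3* and *IFIT1* lie within the span of *LIPA* on the opposite strand.

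The neighbouring genes of the same family did not pass. *IFIT3*, whose protein partners IFIT1 and IFIT2, measured 22.4, 18.7 and 21.7 CPM in control cells and 14.0, 18.5 and 15.7 in *ETS1* KD cells (−0.38, adjusted p = 0.658, edgeR). *IFIT1* measured 11.3, 7.07 and 7.47, then 8.36, 7.72 and 6.92 (−0.16, adjusted p = 0.904, edgeR). The first did not overlap between the groups and the second did.

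Of the 36 tested members, 1 fell in *ETS1* KD cells (2.78%, against 1.13% of all genes) and 0 rose (0.255% of all), with 2 higher and 6 lower at an unadjusted p under 0.05. DESeq2 called 2 lower, the second being *MX2*, and the study's threshold also gave 2 lower (4.52% of all) and 0 higher (1.15%). *MX2*, which encodes a GTPase active against HIV, measured 4.13, 4.33 and 5.08 CPM in control cells and 2.76, 3.46 and 2.43 in *ETS1* KD cells (−0.65, adjusted p = 0.12, edgeR). Small decreases were the more common direction: 27 of the 36 fold changes were negative and 9 positive (75% negative, against 49.1% of all genes), and the median was −0.22, against 0.01. Replicates did not overlap for 11 members that were lower (30.6%, against 10.8%), namely *IRF1*, *IRF7*, *IFIT2*, *IFIT3*, *OAS1*, *MX1*, *MX2*, *ISG20*, *PARP14*, *TRIM22* and *IFI44L*. They did not overlap for 3 that were higher (8.33%, against 9.57%), namely *OAS3*, *BST2* and *IFI6*. The 3 control libraries entered all of these fold changes, so the members are not independent of one another.

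Several of these differences were small and did not pass. *IRF1* stood at 35.4, 32.0 and 35.6 CPM in *ETS1* KD cells, below the 3 TWEAK-treated control libraries and above the 3 untreated ones (−0.46, adjusted p = 0.14, edgeR). With a correction for GC content and length its adjusted p was 0.0378 by edgeR, at a log2 fold change of −0.43. *IFI6*, an interferon-induced protein of the mitochondria and endoplasmic reticulum, stood at 25.5, 17.6 and 21.3 against 14.9, 16.1 and 15.1 (0.48, adjusted p = 0.178, edgeR). *MX1* measured 2.32, 1.75 and 1.92 (−0.45, adjusted p = 0.301, edgeR) and *ISG15* 12.2, 10.2 and 8.64 (−0.13, adjusted p = 0.912, edgeR). *STAT2* measured 71.8, 55.4 and 73.7 (−0.28, adjusted p = 0.667, edgeR), *IRF7* 2.58, 2.02 and 2.34 (−0.46, adjusted p = 0.435, edgeR) and *IRF9* 1.64, 0.950 and 0.972 (0.53, adjusted p = 0.728, edgeR). *BST2*, which encodes the tether that holds budding virions, had the highest positive value (1.09, adjusted p = 0.426, edgeR) at only 2 to 33 counts per library.

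**Figure D4:**
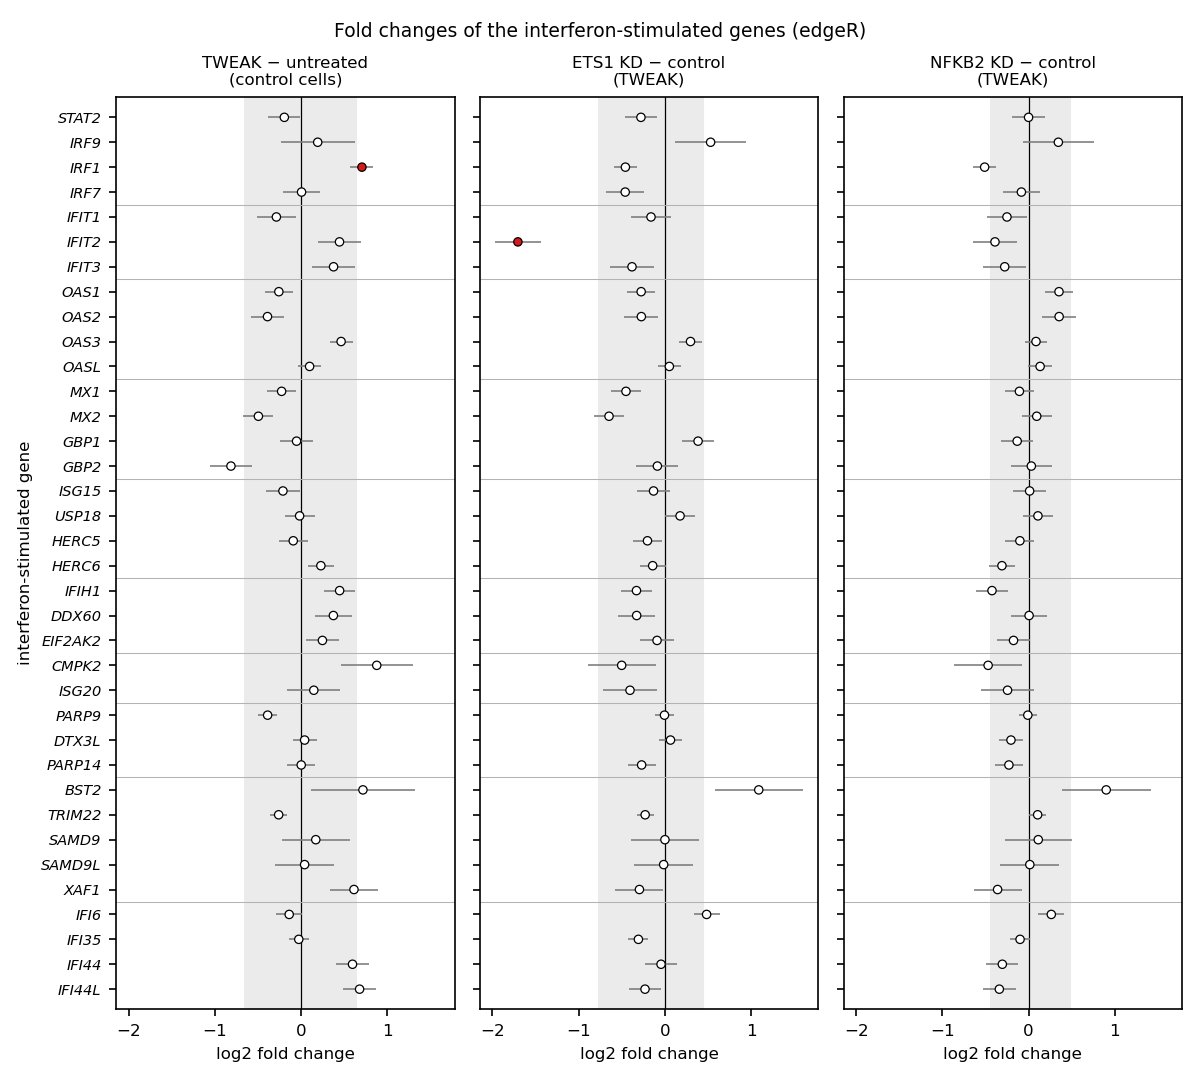
Log2 fold change (horizontal axes) of each of the 36 tested genes (rows) in the 3 comparisons, with SE bars from edgeR. Red points passed an adjusted p of 0.05, and grey bands hold the middle 90% of all tested genes. Only *IRF1* with TWEAK (0.70) and *IFIT2* in *ETS1* KD cells (−1.70) are red.

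*NFKB2* KD against control, both with TWEAK, asked the same of p52, and no member passed. Among the 36 tested, 0 rose (0.00592% of all genes) and 0 fell (0.0237%) by edgeR and by DESeq2, while 1 was higher and 2 lower at an unadjusted p under 0.05. The study's threshold also gave 0 and 0 (1.26% and 0.989% of all genes). Few genes of any kind passed here, with 1 of 16879 higher and 4 lower. The median log2 fold change was −0.09, against −0.02 over all genes. Replicates did not overlap for 3 members that were higher (*OAS1*, *BST2* and *IFI6*, 8.33% against 3.05%) and 3 that were lower (*IRF1*, *ISG20* and *IFI44L*, 8.33% against 3.82%).

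*IRF1* measured 30.1, 36.1 and 33.1 CPM in *NFKB2* KD cells, all below the 39.3 to 55.4 of TWEAK-treated control cells. The log2 fold change was −0.51 ± 0.13 (adjusted p = 0.682, edgeR), and its unadjusted p was 0.00218. With a correction for GC content and length together with the replicate block, the adjusted p was 0.0347 by edgeR and the log2 fold change −0.57. The *IRF1* means of 34.3 ± 1.99 in *ETS1* KD and 33.1 ± 3.01 in *NFKB2* KD (SD, n = 3) thus lay between those of untreated and TWEAK-treated control cells, without passing the test in either KD on the uncorrected counts.

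*IFIT2* measured 15.1, 6.39 and 12.7 CPM in *NFKB2* KD cells (−0.39, adjusted p = 1.00, edgeR). *IFIT3* measured 23.5, 9.33 and 19.0 (−0.28, adjusted p = 1.00, edgeR). In each gene replicate 2, a library with a large GC trend, was the low one, and the other 2 replicates lay within or above the range of untreated cells. *STAT2* measured 62.6, 89.2 and 91.6 (adjusted p = 1.00, edgeR), *IRF7* 3.30, 3.05 and 2.67 and *IRF9* 0.521, 1.31 and 1.31. *ISG15* measured 11.2, 14.4 and 8.66, *MX1* 2.72, 2.80 and 2.07 and *IFIT1* 8.40, 6.86 and 6.35, all overlapping the TWEAK-treated control libraries.

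The KDs were then compared with each other, which tests the difference between their effects directly, since they share the same controls. *IFIT2* was lower in *ETS1* KD than in *NFKB2* KD cells by 2.49-fold (−1.31 ± 0.26, adjusted p = 0.0239, edgeR). The adjusted p ran from 6.07e-09 to 0.137 over 22 alternatives. It was above 0.05 in 4 of them: 0.0767 with only these 2 groups in the fit, 0.081 without *ETS1* KD replicate 1, 0.137 without *ETS1* KD replicate 3 and 0.0795 without *NFKB2* KD replicate 3. An alternative chosen after seeing the data left out untreated replicate 3 and *NFKB2* KD replicate 2, the libraries with the largest GC trends. There the *IFIT2* difference was −1.60 (adjusted p = 0.000635, edgeR). The second of these libraries held the lowest *IFIT2* value of the *NFKB2* KD group, so leaving it out had to widen the difference. In all, 1 member was lower (2.78%, against 1.40% of all genes) and 0 were higher (0.533%), with 5 and 1 at an unadjusted p under 0.05. The study's threshold gave 0 higher (1.77%) and 4 lower (5.60%), and DESeq2 called 4 lower, namely *IFIT2*, *MX2*, *OAS1* and *TRIM22*.

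*OAS1*, *OAS2* and *OAS3* encode the enzymes that make the 2-5A activator of RNase L, and they did not differ in 1 direction. *OAS1* measured 3.34, 2.97 and 2.60 CPM in *ETS1* KD cells and 4.43, 5.06 and 4.29 in *NFKB2* KD cells (−0.63, adjusted p = 0.0738, edgeR). *OAS2* measured 2.67, 1.78 and 2.03, then 3.13, 3.81 and 3.07 (−0.63, adjusted p = 0.135, edgeR). *OAS3* stood at 0.21 (adjusted p = 0.485, edgeR), higher in *ETS1* KD cells, and *OASL*, a relative without synthetase activity, at −0.08 (adjusted p = 0.833, edgeR) with overlapping replicates. *MX2* measured 2.76, 3.46 and 2.43, then 4.43, 5.79 and 4.22 (−0.74, adjusted p = 0.0565, edgeR). Replicates of *OAS1*, *OAS2*, *OAS3* and *MX2* did not overlap, and none of the genes passed. Replicates did not overlap for 8 members lower in *ETS1* KD (22.2%, against 9.22%) and 3 that were higher (8.33%, against 9.79%).

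The upstream pathway was read from 99 further genes, listed by role, of which 65 could be tested. All 21 interferon ligand genes on the list were at 0 in all 12 libraries, where 3 counts, the limit that a count of 0 allows, correspond to 0.0747 to 0.108 CPM. They included *IFNB1*, the type I interferon that most cells make first. Of these ligand genes, 16 lie in a stretch of 1.8 Mb at chr9:20658309-22455740 in hg38 with 23 protein-coding genes, all at 0 in every library. The other 7 were *FOCAD*, *HACD4*, *KLHL9*, *MTAP*, *CDKN2A*, *CDKN2B* and *DMRTA1*, and the 20 peak lists held 0 peaks in the stretch. Of the 59 annotated genes of any type there, 56 were at 0, and the rest held 55 counts in all. The flanking protein-coding genes *MLLT3* and *ELAVL2* held 1 and 349 counts over all 12 libraries. The presence of this DNA in the cells was not tested.

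The type I interferon receptor genes were expressed. *IFNAR1* ran from 87.9 to 132 CPM over the 12 libraries, with log2 fold changes of 0.16 with TWEAK, −0.02 after *ETS1* KD and −0.17 after *NFKB2* KD. *IFNAR2* measured 8.06, 7.78 and 7.59 without TWEAK and 8.93, 10.8 and 12.3 with it, without overlap (0.45, adjusted p = 0.175, edgeR). None of the 5 tested receptor genes or 9 inhibitor genes passed in any comparison.

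Among the 65 tested pathway genes, 1 rose with TWEAK (against 1.55% of all tested genes) and 1 fell in *ETS1* KD cells (against 1.13%). In *NFKB2* KD cells 0 passed (0.00592% of all genes higher and 0.0237% lower). A count of 1 in 65 is close to these all-gene shares for TWEAK and *ETS1* KD, so it does not set the pathway apart. The gene that rose was *TNFSF10*, which encodes the death ligand TRAIL. It measured 0.347, 0.338 and 0.219 CPM without TWEAK and 0.969, 1.02 and 0.972 with it (1.70 ± 0.29, adjusted p = 0.00707, edgeR). Its log2 fold change was −0.95 when *ETS1* was knocked down (adjusted p = 0.128, edgeR) and −1.28 when *NFKB2* was (adjusted p = 0.319, edgeR), and neither passed. The gene that fell was *IRF5*, which encodes a transcription factor downstream of Toll-like receptors. It measured 4.88, 5.85 and 7.50 in TWEAK-treated control cells and 2.29, 2.02 and 3.40 in *ETS1* KD cells (−1.24 ± 0.22, adjusted p = 0.0125, edgeR). *IRF5*, like *IFIT2*, was also lower in *ETS1* KD than in *NFKB2* KD cells (−1.12, adjusted p = 0.0235, edgeR).

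ChIP-seq peaks then showed where p52 lay relative to these genes. A promoter was counted as bound when peaks of both libraries shared a site that overlapped the window from 1000 bp before to 100 bp after any annotated start of the gene. Fold enrichment is that given by the peak caller at the summit, over its local background. With 2 libraries a group no test was made, and the depth behind the peak lists is unknown. In untreated cells 0 of 38 genes had a p52 site (0.0178% of all tested genes). With TWEAK 3 had one, *IRF1*, *OAS3* and *IFIT3* (7.895%, against 4.21%), from lists of 3579 and 11761 peaks.

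At *IRF1* the p52 summits were 92 and 81 bp before the main start, with fold enrichments of 7.24 and 17.1, and the κB match printed above was centred 46 and 35 bp from them. At *OAS3*, which encodes the 2-5A synthetase with the highest affinity for double-stranded RNA, the summits were 133 and 130 bp before the start (9.93 and 15.7). There the ISRE and the κB match lie side by side under the peak, the first centred 5 and 8 bp and the second 8 and 5 bp from the summits. At *IFIT3* the summits lay inside the gene, 6093 and 6097 bp after the main start (7.88 and 18.7), near the start of another transcript, with the κB match centred 4 and 0 bp away. Over all p52 peaks with TWEAK, 59.5% and 63.5% held the κB consensus within a 200-bp window around the summit, 7.15% and 6.21% the ISRE and 12.1% and 6.05% the GAS.

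Of the 3 genes with a shared p52 site, *IRF1* passed the test of TWEAK against no treatment and *OAS3* and *IFIT3* did not. *OAS3* measured 10.8, 11.9 and 13.4 CPM without TWEAK and 14.4, 16.9 and 18.5 with it, without overlap (0.46, adjusted p = 0.089, edgeR). *OAS3* was called in 6 of 22 alternatives, with adjusted p of 0.0291 by DESeq2 and 0.0488 by edgeR without *NFKB2* KD replicate 2, whereas *IRF1* was lost in 5. *IFIT3* stood at 0.38 (adjusted p = 0.58, edgeR). *OAS3* was not lower in the KDs, where it measured 19.2, 20.4 and 21.6 in *ETS1* KD and 17.9, 15.9 and 19.1 after *NFKB2* KD (0.30 and 0.09). The larger list of TWEAK replicate 2 alone also held peaks at *DDX60* (11.4-fold), *IFIH1* (14.5-fold) and *ISG20* (5.76-fold). *IFIT2* had no p52 site at its promoter, and the nearest one in TWEAK-treated cells was 32.0 kb from its start.

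In *ETS1* KD cells made with guide 2, p52 sites were at 5 of the 38 promoters (13.16%, against 4.11%), those of *IRF1*, *OAS3*, *IFIT3*, *DDX60* and *IFIH1*. The fold enrichments were 5.75 and 4.44 at *IRF1*, 15.2 and 8.52 at *OAS3*, 10.4 and 10.2 at *IFIT3*, 9.08 and 6.83 at *DDX60* and 5.81 and 7.86 at *IFIH1*. At *IRF1* these were below both values of control cells, whereas at *OAS3* and *IFIT3* they lay between or near them. With guide 1, 0 of 38 had a shared site (1.68% of all genes). That result rests on replicate 1, whose list held only 1387 peaks, since replicate 2 alone had peaks at *IRF1*, *OAS3*, *IFIT3* and *DDX60* (up to 10.9-fold at *IRF1*).

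ETS1 sites were few at these promoters, and their share was not above that of all tested genes. In untreated cells 0 of 38 genes had a shared ETS1 site (5.37% of all genes) and with TWEAK 2 had one (5.263%, against 7.48%). These were *HERC6*, which encodes a HECT ligase related to the ISG15 ligase, with fold enrichments of 3.71 and 6.14, and *PARP14*, which encodes an ADP-ribosyltransferase, with 4.39 and 7.12. At *PARP14* only the replicate 1 peak overlapped the promoter window. Its replicate 2 peak lay outside the window and counted because it shared bases with that of replicate 1. Neither *HERC6* nor *PARP14* was counted at a −log10 q of at least 5 or with 1 start per gene. Peaks of 1 replicate only were found at *EIF2AK2* and *HERC5* with TWEAK and at *CMPK2*, *RSAD2*, *HERC5*, *HERC6*, *IRF1* and *OAS3* without it. *CMPK2* and *RSAD2*, which encodes the antiviral enzyme viperin, are divergent neighbours and share that peak. *IFIT2* was not among them, and the nearest ETS1 site with TWEAK was 421.5 kb from its start.

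**Figure D5:**
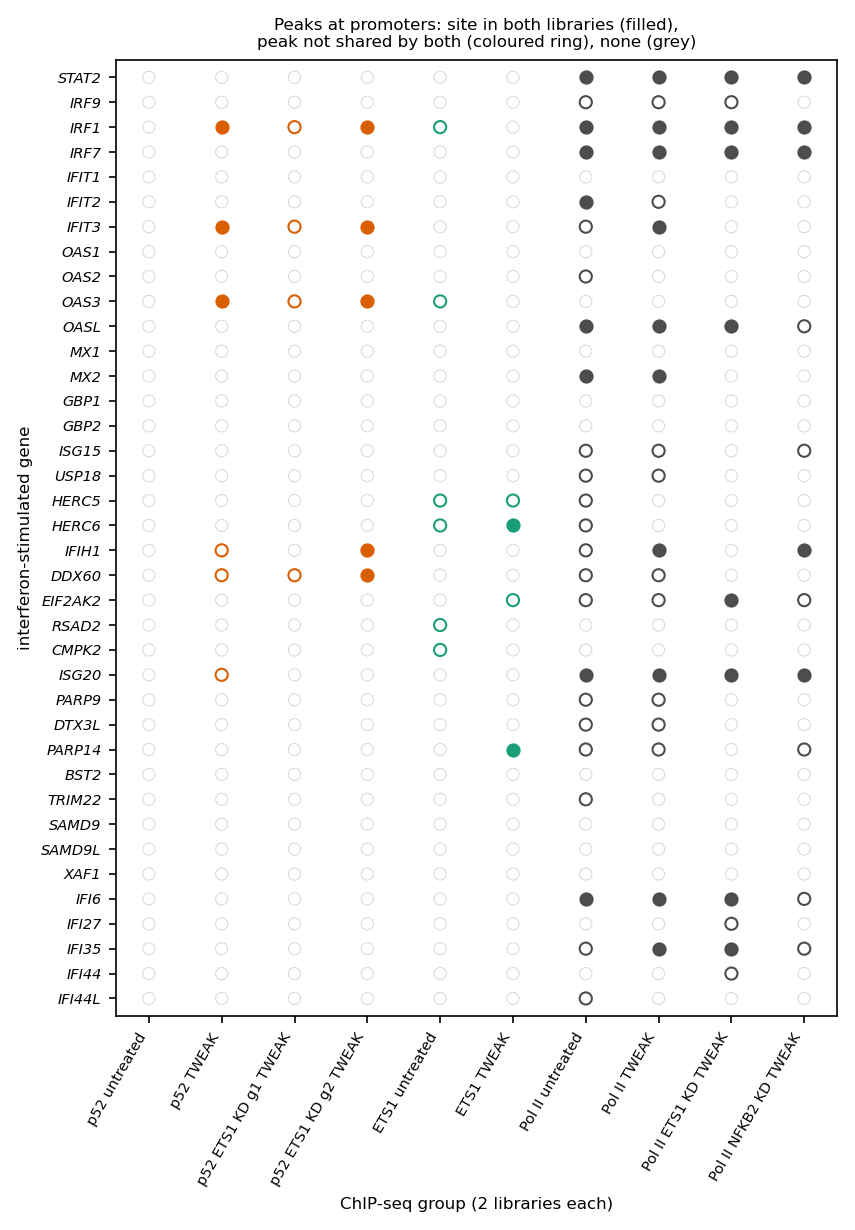
Promoter peaks of the 38 genes (rows) in the 10 ChIP-seq groups of 2 libraries (columns). Filled points mark a site shared by both libraries, coloured rings a peak not shared by both, and grey rings no peak. p52 points (orange) appear only with TWEAK, ETS1 (green) is filled at *HERC6* and *PARP14*, and RNA Pol II (dark) is filled in all 4 groups at *STAT2*, *IRF1*, *IRF7* and *ISG20*.

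RNA Pol II peaks were less frequent at these genes than at tested genes in general. In untreated cells 8 of 38 had a shared peak (21.05%, against 45.9%), with TWEAK 10 (26.32%, against 57.2%), in *ETS1* KD cells 8 (21.05%, against 48.5%) and in *NFKB2* KD cells 5 (13.16%, against 43.1%). *STAT2*, *IRF1*, *IRF7* and *ISG20* had one in all 4 groups, and 12 members, among them *IFIT1*, *OAS1*, *MX1* and *GBP1*, had none in any of the 8 lists. At the main start of *IRF1* the fold enrichments were 28.8 and 41.0 in untreated cells, 125 and 49.7 with TWEAK, 38.0 and 30.8 after *ETS1* KD and 38.4 and 21.0 after *NFKB2* KD. Both TWEAK-treated control values were above the other 6, although they differed widely from each other. At *IFIT2* the peaks were weak, at 4.91 and 4.67 in untreated cells and 5.08 in TWEAK replicate 2 alone. *IFIT2* had no peak in TWEAK replicate 1 or in any KD list, so neither TWEAK-treated control cells nor the KDs had a shared peak there.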

How the data were processed

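RNA was measured in 12 libraries and chromatin in 20, and the 3 input libraries were not used here. The submitters' processing notes name Trimmomatic, STAR, featureCounts, DESeq2, Bowtie2, MACS2, deepTools and hg38, with versions not given in the sources used here. The authors deposited raw gene counts (unit counts, not normalised) and, for each ChIP-seq library, a MACS2 peak list with the signal value (a fold enrichment, a ratio over local background) and the −log10 p-value and −log10 q-value. 0 value columns were left unused, and 0 counts belonged to rows with no gene. MACS2 removes low signal by its own threshold, so a missing peak is not a zero.

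Counts of all 12 libraries were fitted together in edgeR 4.0.16 (R 4.3.3) with TMM scaling, a group term and the default filter on low counts, and Benjamini-Hochberg adjustment ran over 16879 genes. An adjusted p under 0.05 was the threshold. CPM used the TMM library sizes and a prior count of 2 on the log scale only. On simulated data of the *ETS1* KD comparison with 16659 genes tested, 93% of genes changed by 1 and 99% of genes changed by 2 on the log2 scale were recovered. The simulation gave every gene the same spread, held no GC trend and changed only genes above a minimum mean count. It checks the code, and its shares do not give the power in the real libraries. DESeq2 1.42.0 and other settings gave 23 fits per comparison. A library with more counts measures low genes more precisely. Peaks were compared with pandas 2.3.3, at an overlap of at least 1 bp, and sequence was read with pysam 0.24.0. The promoter table matched hg38 in 40 of 40 entries checked.

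The members, role lists and pathway lists were chosen with earlier results of these data known. Values in every library were given for the 4 transcription factors, *ISG15*, *MX1*, *IFIT1*, and up to 10 members per comparison with the largest change among those past the threshold. For the pathway lists they were given for up to 3 genes called per list and for *IFNB1*, *IFNAR1* and *IFNAR2* (another gene named by the rule is not reported here), and for ChIP-seq every member with a p52 or ETS1 peak was named. *GBP2*, *IFI44L*, *MX2*, *IFI6*, *BST2*, *OAS1*, *OAS2*, *OAS3*, *OASL* and *IFIT3* were added after their values were seen.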

Additional observations from a re-analysis of the deposited data

Results flagged for a closer look

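*IFIT2* was singled out by the test of the difference between the KD effects: its log2 fold change against TWEAK-treated control cells was −1.70 after *ETS1* KD and −0.39 after *NFKB2* KD, a difference of −1.31 (adjusted p = 0.0239, edgeR). The value was lower in *ETS1* KD in 3 of 3 libraries, and *NFKB2* KD replicate 2 (6.39 CPM) lay closest to the *ETS1* KD libraries. Groups of 2 or 3 libraries are too small for a search for outlying samples.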

How the results depend on the processing

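The values above rest on 3 libraries per RNA-seq group and 2 per ChIP-seq group. The sign changed for 1 summary value, the TWEAK median without a filter given next to the other medians, and under the alternatives 64 summary values moved beyond the limits used, against 481 that did not. For TWEAK, the number of members that rose (1) became 3 with DESeq2, without a filter, at the study's threshold and in an alternative chosen after seeing the data that left out the 2 libraries with the largest GC trends, 4 with a correction for GC content and length, with or without the replicate block, 2 with the block alone, 0 with only the groups compared, and 0 to 3 when 1 library was left out. The number that fell (0) became 2, 1, 1 and 2 in the first 4 of these settings, 1 with the GC correction, 2 with that and the block, and 0 to 2 when 1 library was left out. *IRF1* was lost without untreated replicate 1 or 2 or TWEAK replicate 2 or 3, and the counts became 3 and 2 without *NFKB2* KD replicate 2.

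For *ETS1* KD, 1 member (*IFI6*) rose with the GC correction, with or without the block, and 2 fell with DESeq2, at the study's threshold and with either GC correction. For *NFKB2* KD, 1 fell (*IRF1*) with the GC correction and the block. Between the KDs, 1 (*GBP1*) was higher with that correction, and the number lower (1) became 4 with DESeq2, at the study's threshold and with the GC correction and block, 2 with upper-quartile scaling, without a filter and with a minimum mean of 10 counts, 0 with only these groups, and 0 to 2 when 1 library was left out. Median log2 fold changes ran from 0.012 to 0.11 (TWEAK), −0.11 to −0.022 (*NFKB2* KD) and −0.10 to −0.016 (between the KDs) when 1 library was left out. They were −0.0027 for TWEAK without a filter and −0.10 between the KDs with upper-quartile scaling. The cause of these shifts was not tested.

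Same-numbered libraries of different groups did not all deviate together (correlations of −0.30 to 0.49). Those numbered 3 were all positively correlated (0.071 to 0.49), whereas those numbered 1 and 2 went both ways. Libraries with different numbers also reached 0.49 (TWEAK replicate 1 with *ETS1* KD replicate 2). Whether the numbers pair the samples cannot be told from this, and the replicate block is given only as a setting. It moved no other count by over 1.5 times.

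Counts of promoters with a site moved when 1 replicate sufficed, to 6 (p52 with TWEAK), 4 (p52, guide 1), 4 (ETS1 with TWEAK), 6 (ETS1 untreated), 24, 19 and 11 (RNA Pol II untreated, with TWEAK and in *NFKB2* KD cells). With 1 replicate left out they ran over 3 to 6, 0 to 4, 1 to 4, 0 to 6, 8 to 24, 13 to 16 and 7 to 9 in the same order. At a −log10 q of at least 5 they were 0 for ETS1 with TWEAK, 5 for RNA Pol II untreated and 3 in *NFKB2* KD cells, and with 1 start per gene 0 for ETS1 with TWEAK. All-gene shares were not counted at these alternative peak settings. The comparisons of peaks with all tested genes therefore rest on the main setting alone. In 1100-base promoters the GAS share was 50%, against 29.6% of all tested genes.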
